A study of Mus musculus with 468 samples.

Results

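The genes described here are 44 genes of the extracellular matrix and its remodelling, chosen by name: collagens, basement membrane proteins, fibronectin and elastic fibre proteins, lysyl oxidases, matricellular proteins, small leucine-rich proteoglycans, matrix proteases and protease inhibitors. All 44 were found by gene symbol among the 23180 genes of the count table, and all 44 were among the 18380 genes that reached 10 counts in no fewer than 50% of libraries. They were measured by RNA sequencing in gonadal, visceral adipose tissue from adult Diversity Outbred mice, a stock in which the genomes of several inbred founder strains are shuffled so that almost no 2 animals share a genotype. Every mouse was fed a high-fat, high-sugar (HFHS) diet with 45% fat and gave 1 library, so there is a single group with no control diet, and every spread below is over mice. The labels separate the animals only by a mouse number and a library number. The questions put to the data were therefore how the matrix genes varied from mouse to mouse, which of them varied together, and how they tracked 3 reference genes: Lep, which encodes the adipocyte hormone leptin; Adgre1, which encodes the macrophage surface protein F4/80; and Pdgfra, which encodes a growth factor receptor of adipocyte progenitors and fibroblasts.

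Fibrillar collagens are secreted as procollagens, trimmed outside the cell and cross-linked by lysyl oxidases into the fibres of the interstitial matrix. Each adipocyte is also wrapped in a basement membrane, a thin sheet of type IV collagen, laminins, nidogens and perlecan, and type VI collagen lies between this sheet and the fibres around it. The scaffold is cut by metalloproteases, which are held in check by tissue inhibitors (TIMPs), and it is rebuilt as fat cells enlarge; an excess of collagen in obese adipose tissue is called fibrosis.

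The lowest library total of expected counts was 35.3 M and the highest 137.8 M (M, mega; median 82.04 M, SD 12.9 M), and no member was at 0 in any library. Libraries fell into 2 clusters, 51.5% with counts from 4 Y chromosome genes and 48.5% without. The study's methods name both female and male mice, which the labels do not tell apart, and the clusters are not groups of the labels, so each relation was computed with the cluster in the model, or as a Pearson correlation (r) of log2 CPM (read counts scaled to a common library size) after the mean of each cluster had been subtracted. All 12 adipocyte markers were present in every library (summed level 13609 to 55524 CPM). In 13 libraries other material stood out: genes of the epididymis and seminal vesicle in 8, of the ovary and oviduct in 2, of skeletal muscle in 1, and a ribosomal RNA gene above 10% of counts in 2. The library of mouse DO283, where the epididymis and seminal vesicle genes reached 228836 CPM, held the lowest value of 13 of the 44 members. In bulk tissue, fewer cells of a type and less RNA per cell cannot be told apart.

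Promoter windows of 3 members are shown because these genes stand for 3 patterns described below: Col3a1 for the closely joined fibrillar collagens, Mmp14 for the genes that tracked Pdgfra, and Timp1 for the most variable member. Each window is the 250 bases before a RefSeq start site on GRCm38.p6, read 5′ to 3′ on the strand of the gene, from chr1:45311288-45311537, chr14:54431348-54431597 and chrX:20869916-20870165, all on the plus strand and outside annotated exons. Capitals mark matches, on either strand, to the CCAAT box, the TATA box written as TATAAA, the GC box written as GGGCGG, the AP-1 element written as TGANTCA and the E-box written as CACGTG, which may overlap.
Col3a1: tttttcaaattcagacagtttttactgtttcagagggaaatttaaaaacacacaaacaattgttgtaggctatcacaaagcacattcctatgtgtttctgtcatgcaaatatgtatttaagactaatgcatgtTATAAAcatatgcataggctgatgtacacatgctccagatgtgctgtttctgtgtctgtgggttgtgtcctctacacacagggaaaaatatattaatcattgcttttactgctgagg
Mmp14: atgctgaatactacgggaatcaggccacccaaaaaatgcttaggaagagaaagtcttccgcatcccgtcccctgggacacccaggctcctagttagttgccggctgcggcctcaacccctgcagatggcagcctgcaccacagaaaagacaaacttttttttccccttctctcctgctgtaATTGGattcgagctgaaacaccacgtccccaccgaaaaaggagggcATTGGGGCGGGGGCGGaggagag
Timp1: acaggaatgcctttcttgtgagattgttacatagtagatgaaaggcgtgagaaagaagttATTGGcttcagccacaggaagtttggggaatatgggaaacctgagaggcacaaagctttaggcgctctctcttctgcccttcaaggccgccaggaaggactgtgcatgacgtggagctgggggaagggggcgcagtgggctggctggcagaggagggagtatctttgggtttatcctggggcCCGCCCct
The Col3a1 window held 1 TATAAA and no other match, the Mmp14 window 2 CCAAT and 2 GC boxes, and the Timp1 window 1 CCAAT and 1 GC box. Of the 44 members 28 had an entry in the RefSeq table, with 32 windows, and 20 of the 32 (62.5%) held a GC box, against 32.7% of all 32851 windows of that length. CCAAT was found in 37.5% of the members' windows and 33.8% of all, TATAAA in 15.6% and 12.4%, TGANTCA in 3.13% and 6.75%, and CACGTG in 0 of 32 and 6.02% of all. A match describes the letters only, and the windows of Tnc overlap each other, as do those of Col6a2.

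Per kb of exon, the most abundant member was Sparc (ENSMUSG00000018593, GRCm38 chromosome 11, 55394500 to 55423183), which encodes a collagen-binding protein of basement membranes. Its level was 644.5 CPM in the lowest library (DO283, where other material stood out), 2424 in the median and 5069 in the highest. Its median was 639.8 CPM per kb. The type IV collagen chains Col4a1 (median 234.5 CPM per kb) and Col4a2 (162.99), the fibrillar Col3a1 (189.2), the nidogen Nid1 (159.1), the proteoglycan Dcn (148.9) and Col6a1 (128.2) followed. At the other end stood Lama2 (7.40 CPM per kb), Timp1 (3.10), Col12a1 (2.54), Tnc (2.48) and Col8a1 (1.82). The median member was at 35.5 CPM per kb, against 2.55 over all genes that passed the filter. The ranges over mice overlap between most neighbours in this order, as the plot of levels by role shows.

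**Figure D1:**
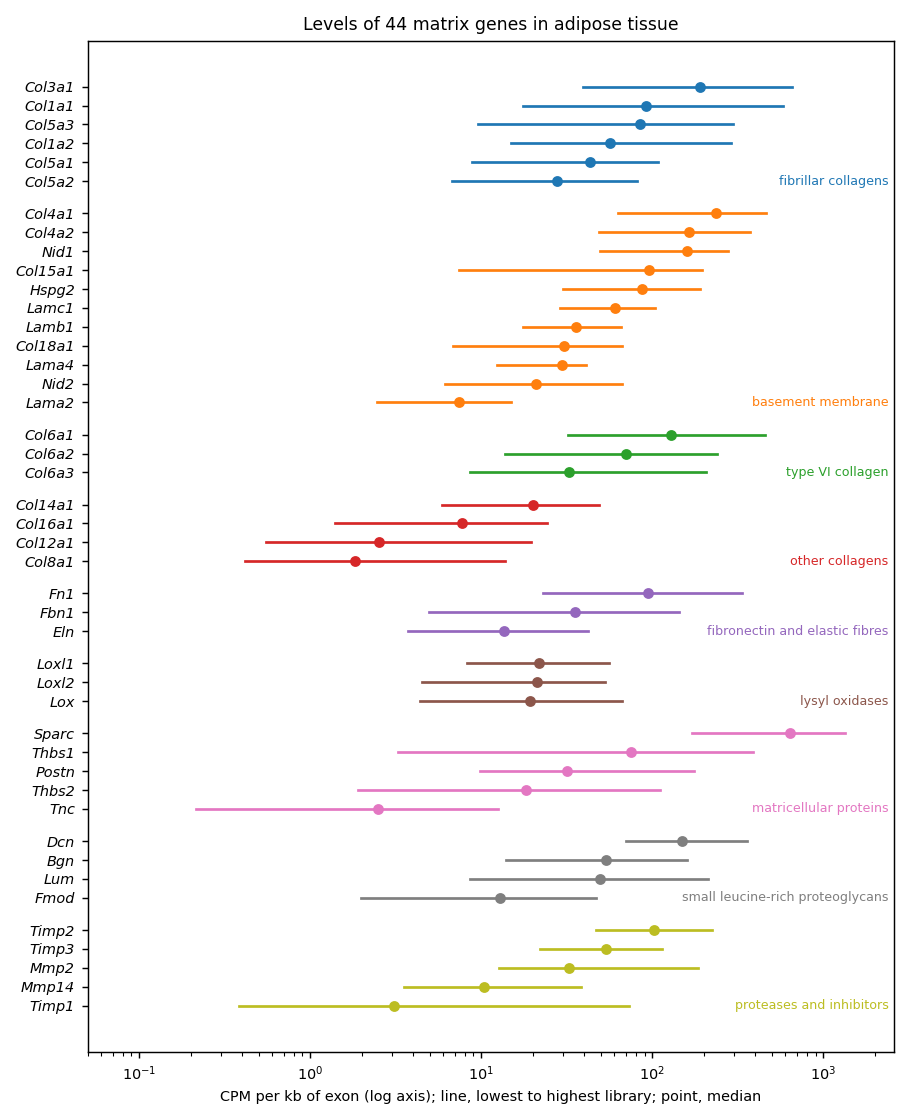
Levels of the 44 genes in CPM per kb of exon (log axis), grouped by role; each line runs from the lowest to the highest library and the point is the median. Sparc sits highest with a median of 639.8 CPM per kb and Col8a1 lowest with 1.82, and the line of Timp1 spans 0.382 to 72.8.

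The members varied more between mice than the median gene. The SD of log2 CPM within clusters had a median of 0.59 over the 44 members, against 0.42 over all genes past the filter and 0.25 over the 9508 that averaged 10 CPM or more. Timp1 (ENSMUSG00000001131, GRCm38 chromosome X, 20870166 to 20874735), which encodes a secreted inhibitor of metalloproteases, varied most: it was at 0.340 CPM in DO121, 2.75 in the median library and 64.7 in DO088, an SD of 1.38 on the log2 scale. The thrombospondins Thbs1 (lowest 19.8, median 454.9, highest 2342 CPM; SD 1.00) and Thbs2 (13.3, 128.2 and 772 CPM; SD 0.88), which bind matrix and cell surfaces, came next, with Col12a1, a collagen that decorates fibrils (8.41, 38.7 and 297.9 CPM; SD 0.86). The least variable members were laminin chains: Lama4 (SD 0.23; highest library 3.33 times the lowest), Lamb1 (SD 0.28; 3.73 times) and Lamc1 (SD 0.28; 3.61 times). The lowest library was DO283 for each of these chains, so the ratios rest on a library where other material stood out. By role, the median SD was 0.42 over 11 basement membrane genes, 0.67 over 6 fibrillar collagens and 0.67 over the 3 chains of type VI collagen.

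Extreme values were shared between genes. DO232 held the highest value of 7 members, among them Col1a1 (3816 CPM, against a median of 604.7), Col1a2 (3600, against 703) and all 3 type VI chains. DO088 held the highest value of 9, among them Col3a1 (6405 CPM), Mmp2, Mmp14, Timp1 and Timp2, together with the lowest value of Timp3 (179.7 CPM, against a median of 437.95) and the highest of Pdgfra. DO349, the mouse with the least Lep (0.716 CPM, against a median of 1128), held the lowest Col1a1 (114.4 CPM), Col3a1 (386.6), Col6a3 (103.4) and Col15a1 (47.3), and the highest Lamb1.

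The clusters differed for some members and not for others. The cluster accounted for a median of 9.66% of the members' variance in log2 CPM, against 5.33% over all genes past the filter and 7.83% over those that averaged 10 CPM or more. Col8a1, a short-chain collagen of vessels and stroma, had a median of 25.5 CPM in libraries with Y counts and 8.87 in those without (55.3% of its variance), and Col18a1, the source of the fragment endostatin, had 269.8 and 156.7 CPM (36.02%). Medians were also higher in libraries with Y counts for Col12a1 (59.6 and 23.8 CPM), Sparc (3179 and 1859), Hspg2 (1434 and 981) and Fmod (54.6 and 32.02), and lower for Lamb1 (311.4 and 408.5) and Thbs2 (91.8 and 196.5). For Col1a1 (605.1 and 604.4 CPM) and Col3a1 (1738 and 1907) the cluster accounted for 0.271% and 0.0045% of the variance. These levels are a description with no test.

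Most members rose and fell together. Over the 946 pairs of members the median r was 0.52, and 52.2% of pairs had an r of at least 0.5, against 1.26% of all pairs of genes past the filter and 2.89% of pairs of genes that averaged 10 CPM or more. Within a cluster of libraries the median was 0.49 (with Y counts) and 0.52 (without). The first principal component of the 44 genes carried 53.1% of their variance and the second 8.12%. Once the part linear in Lep, Adgre1 and Pdgfra had been removed, the median pair had an r of 0.27. All pairs rest on the same libraries and the same scaling, so they are described and not tested.

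**Figure D2:**
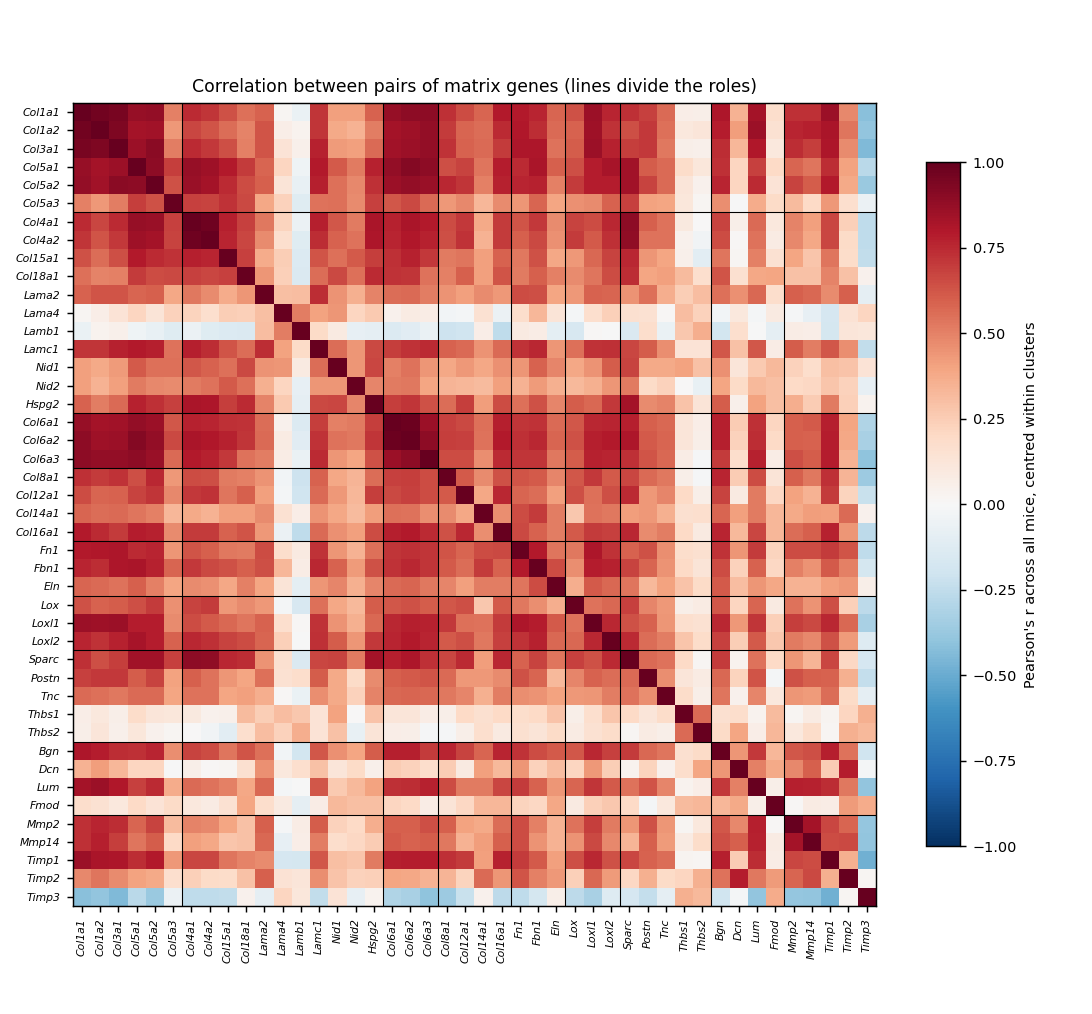
Pearson's r (colour scale, -1 to 1) for each pair of the 44 genes across all mice after centring within clusters; both axes list the genes by role and lines divide the roles. Fibrillar and type VI collagens form dark red blocks (median 0.86 and 0.89), Lama4, Lamb1, Thbs1, Thbs2, Dcn and Fmod have pale rows, and Timp3 a blue one.

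The tightest pairs were chains of the same protein. Col6a1 and Col6a2, 85.2 kb apart on chromosome 10, had an r of 0.98, Col4a1 and Col4a2 on chromosome 8 an r of 0.97, and Col1a1 and Col1a2, on chromosomes 11 and 6, an r of 0.96. Exons of Col4a1 and Col4a2 overlap at their facing starts, and use of strand in the counting is not given in the sources used here, so reads from that overlap cannot be told apart. Genes on different chromosomes could be as close as neighbours: r was 0.95 for Col1a1 and Col3a1 and 0.92 for Col5a1 and Col6a2. The proteoglycan genes Dcn and Lum, 46.985 kb apart on chromosome 10, had an r of 0.50.

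Fibrillar collagens had a median r of 0.86 over their 15 pairs, and 0.87 over 18 pairs with type VI chains. The loosest of them was Col5a3, the third chain of type V collagen, with an r as low as 0.43 inside the group and its highest (0.72) with Col15a1, a basement membrane zone collagen. Genes that finish or bind collagen fibres lay close to this block. Loxl1, a lysyl oxidase, had its highest r with Col3a1 (0.86), the fibril-binding proteoglycan Lum with Col1a2 (0.86), the proteoglycan Bgn with Col1a1 (0.81), fibronectin (Fn1) with Col3a1 (0.81) and fibrillin (Fbn1) with Col5a1 (0.82). With the 3 reference genes removed, the median r within the fibrillar group was 0.72.

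Basement membrane genes were a looser set, with a median r of 0.51 over 55 pairs, and 0.59 over 66 pairs with fibrillar collagens. Col4a1, Col4a2 and perlecan (Hspg2) lay close to the matricellular gene Sparc, whose r was 0.90, 0.89 and 0.83 with them. The laminin chains did not move as a set. Lamc1 had an r of 0.80 with Col5a1 and 0.74 with Lama2, but 0.40 with Lama4 and 0.19 with Lamb1. Lama4 and Lamb1 reached an r of 0.5 only with each other (0.51), and Lamb1 had a negative r with 25 of the other 43 members.

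Proteases and inhibitors split further. Mmp2, a gelatinase, and Mmp14, the membrane-bound protease that activates it, had an r of 0.83. Timp2, which takes part in that activation, had an r of 0.66 with Mmp14 and 0.59 with Mmp2, and its highest with Dcn (0.79). Timp1 went with the collagens, with 0.85 for Col1a1. Timp3, an inhibitor held in the matrix, had a negative r with 32 of 43 members, down to -0.48 with Timp1, and this last r was -0.68 in libraries with Y counts and -0.088 in those without. Exons of Timp3 overlap those of Syn3, so its counts may hold reads of that gene.

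Joined by average linkage at an r of 0.5, the members made 1 group of 32. Outside it were the pairs Lama4 and Lamb1, Col14a1 and Eln, Thbs1 and Thbs2, and Dcn and Timp2, and the single genes Nid2, Tnc, Fmod and Timp3.

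With Lep, 38 of 44 members (86.4%) were higher and 3 were lower at an adjusted p under 0.05 (edgeR quasi-likelihood test over all genes), against 33.5% of all genes higher and 41.3% lower. Because so many genes pass with this many libraries, a second rule, added after the data had been seen, also asked for an r of at least 0.5, and 26 of 44 members met it, against 7.23% of all genes. The median slope, in log2 units per doubling of Lep, was 0.19 for the members and -0.010 for all genes. All 6 fibrillar collagens, all 3 type VI chains, all 4 other collagens, all 3 lysyl oxidases and 9 of 11 basement membrane genes were higher. Markers of other cell types moved with Lep too: all 14 macrophage markers were higher, 8 of 12 endothelial markers were higher and 2 lower, 7 of 14 progenitor and fibroblast markers were higher and 2 lower, and 4 of 12 adipocyte markers were higher and 8 lower. Their part in the members' slopes was not tested.

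Sparc followed Lep most closely. Its r was 0.85 (0.89 in libraries with Y counts and 0.83 without), with a slope of 0.30 ± 0.0090 (SE; adjusted p = 9.14e-121), and over 5 blocks of consecutive mouse numbers r lay between 0.82 and 0.88. Genes of the basement membrane came next: Col4a2 (r = 0.78; slope 0.22 ± 0.0084, adjusted p = 2.05e-91), Col4a1 (0.77), Hspg2 (0.76), Col18a1 (0.75) and Col15a1 (0.75). Among fibrillar collagens, Col5a1 (0.74) and Col5a2 (0.72) stood above Col1a1 (0.59), Col3a1 (0.54) and Col1a2 (0.48). The proteases rose little with Lep, Mmp2 by 0.091 ± 0.017 and Mmp14 by 0.058 ± 0.016 per doubling. These slopes differed between the clusters by more than their own size: they were larger with Y counts by 0.22 for Mmp2 (r = 0.45 with Y counts and 0.15 without) and by 0.15 for Mmp14 (0.39 and 0.071).

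Lamb1 (ENSMUSG00000002900, GRCm38 chromosome 12, 31265234 to 31329644), which encodes the laminin β1 chain, fell as Lep rose (r = -0.42; slope -0.080 ± 0.0075, adjusted p = 4.34e-23). It did so in both clusters (r = -0.31 with Y counts and -0.51 without), while Lamc1, the γ1 chain found in the same trimers, rose (r = 0.57; slope 0.10 ± 0.0071). Thbs2 (slope -0.086 ± 0.027, adjusted p = 0.00223) and Timp3 (-0.033 ± 0.011, adjusted p = 0.00372) were also lower, with an r of -0.017 and -0.13. Unlike Lamb1, they changed sign between libraries with and without Y counts: r was -0.21 and 0.13 for Thbs2, and -0.38 and 0.12 for Timp3. Lama4 (adjusted p = 0.333), Thbs1 (0.452) and Dcn (0.556) did not pass in the same fit, and the 95% interval of the slope ran from -0.0065 to 0.022 for Lama4, -0.035 to 0.088 for Thbs1 and -0.028 to 0.014 for Dcn.

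**Figure D3:**
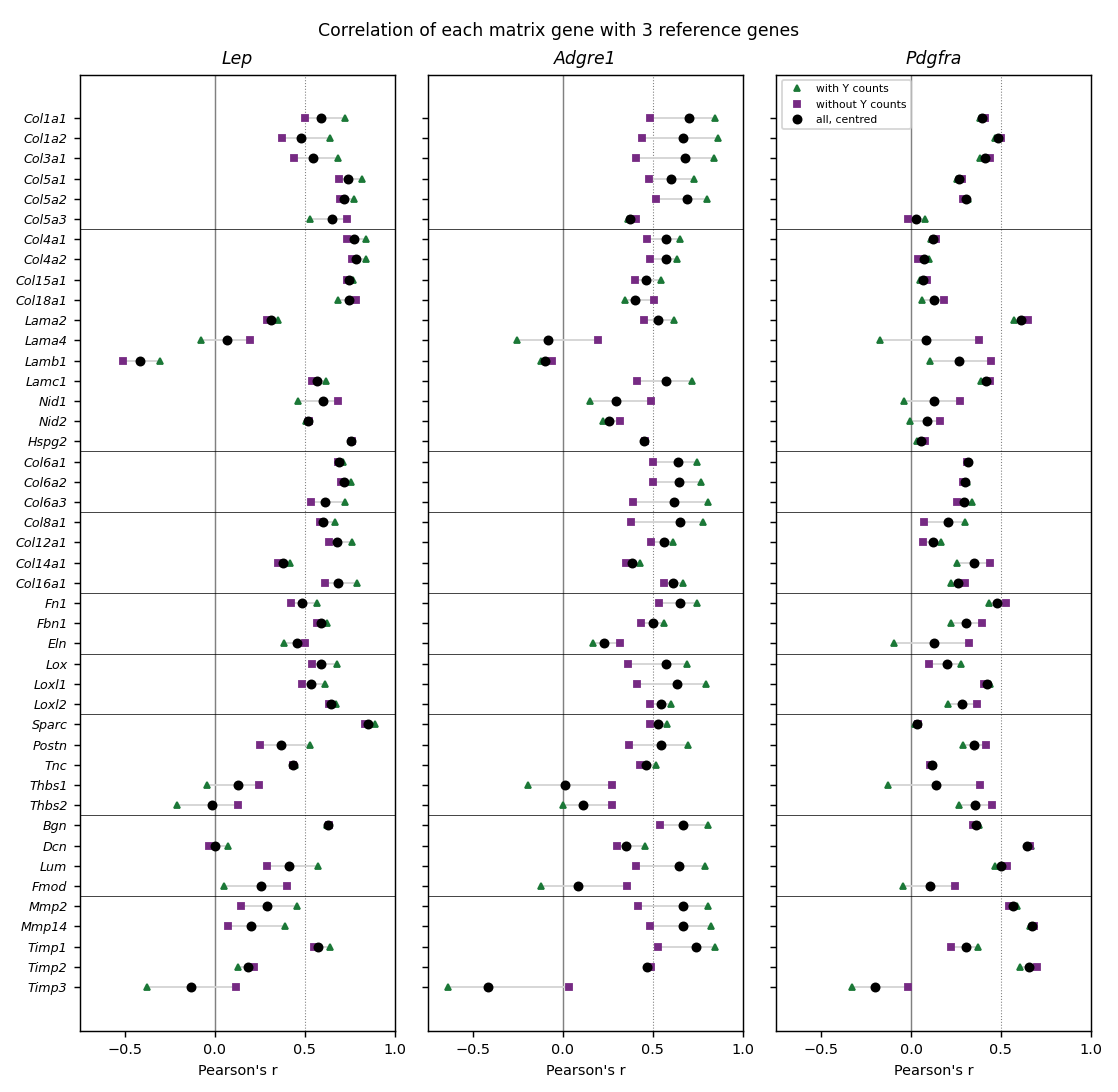
Pearson's r (horizontal axes) of each of the 44 genes (vertical axis) with Lep, Adgre1 and Pdgfra; black circles are all libraries centred within clusters, triangles those with Y counts and squares those without, and the dotted line marks 0.5. Sparc leads for Lep (0.85), Timp1 for Adgre1 (0.74) and Mmp14 for Pdgfra (0.67), and the circle of Timp3 is left of 0 in all 3 panels.

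With Adgre1, 38 of 44 members (86.4%) were again higher and 2 lower, against 31.4% and 44.1% of all genes. With r taken over both clusters, 26 were higher with an r of at least 0.5, against 7.65%. Several of these did not reach 0.5 in libraries without Y counts alone. The median slope was 0.40 per doubling of Adgre1 for the members and -0.026 for all genes. The leading genes were not those that led for Lep. Timp1 came first (r = 0.74; slope 0.99 ± 0.051, adjusted p = 1.72e-61), then the interstitial genes Col1a1 (r = 0.70; slope 0.71 ± 0.034, adjusted p = 3.77e-68), Col5a2 (0.69) and Col3a1 (0.68), the protease Mmp2 (0.67), Col1a2 (0.67), Bgn (0.67) and Mmp14 (0.67). Sparc (0.53) and Hspg2 (0.45) were further down, and Dcn, without a call for Lep, was higher (r = 0.35; slope 0.15 ± 0.019). This order did not hold in both clusters. Without Y counts, r with Adgre1 was 0.53 for Timp1, 0.48 for Col1a1, 0.44 for Col1a2, 0.42 for Mmp2 and 0.41 for Col3a1. With Y counts it was 0.84, 0.85, 0.86, 0.81 and 0.84, in the same order. For Sparc and Hspg2, r was 0.48 and 0.46 without Y counts, above Col1a2, Mmp2 and Col3a1, and 0.58 and 0.46 with Y counts.

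Timp3 (ENSMUSG00000020044, GRCm38 chromosome 10, 86300372 to 86349506) fell as Adgre1 rose (r = -0.42; slope -0.19 ± 0.020, adjusted p = 3.04e-19), opposite to Timp1. Lamb1 was also lower (slope -0.043 ± 0.016, adjusted p = 0.0092), with an r of -0.097. Fmod, a fibril-binding proteoglycan (adjusted p = 0.227 by edgeR), Lama4 (0.0606), Thbs1 (0.189) and Thbs2 (0.94) did not pass. Without DO021 and DO088, the mice farthest from the median of Adgre1, r was 0.76 for Timp1 and -0.40 for Timp3. Markers of macrophages moved with Adgre1 as a list: all 13 others tested were higher, their summed level with Adgre1 ran from 369.5 to 6373 CPM and none was at 0. Of 14 progenitor and fibroblast markers, 10 were higher and 3 lower. All 12 adipocyte markers and 6 of 12 endothelial markers were lower, against 44.1% of all genes. The part of these markers in the members' slopes was not tested.

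**Figure D4:**
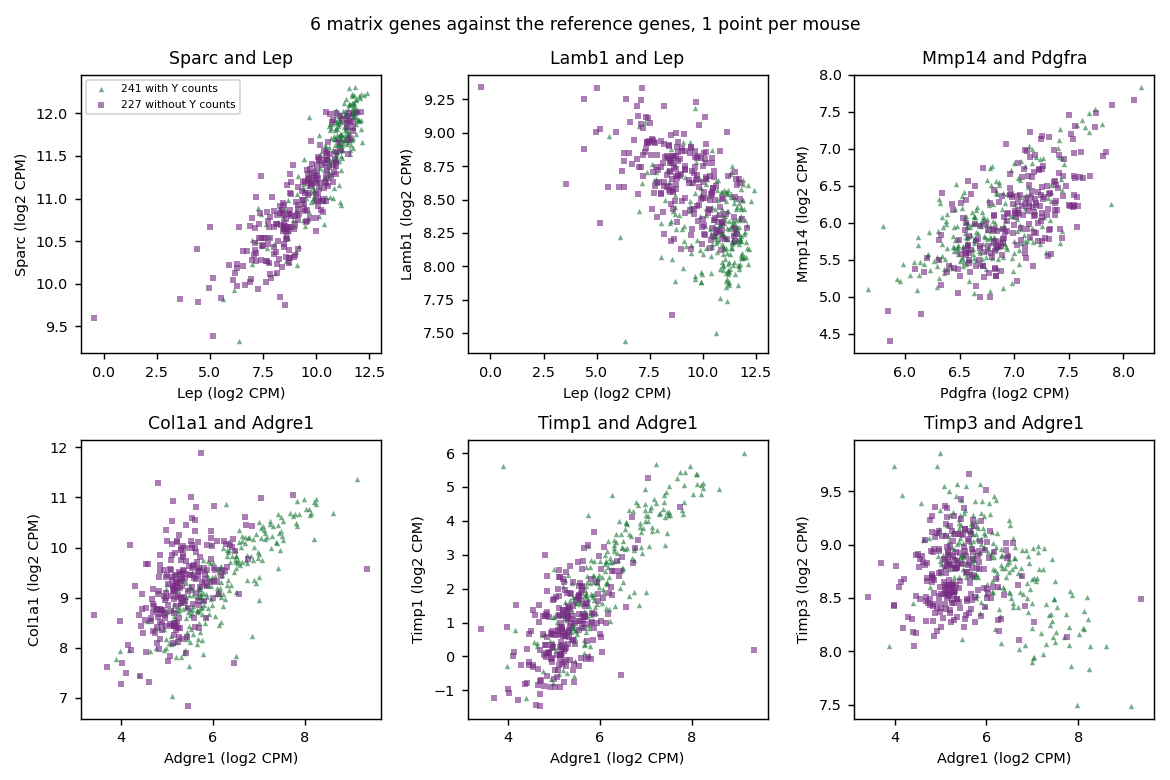
Log2 CPM of 6 matrix genes (vertical axes) against Lep, Adgre1 or Pdgfra (horizontal axes), 1 point per mouse, triangles with and squares without Y counts. Sparc rises with Lep in both clusters (r = 0.89 and 0.83) and Lamb1 falls, Timp1 and Col1a1 rise with Adgre1, and Timp3 falls with Adgre1 among the triangles (r = -0.64) but not among the squares (0.034).

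With Pdgfra, 32 of 44 members (72.7%) were higher and 1 lower, against 26.6% and 32.2% of all genes. Only 5 members had an r of at least 0.5, against 0.609% of all genes: Mmp14, Timp2, Dcn, Lama2 and Mmp2. Mmp14 (ENSMUSG00000000957) led (r = 0.67; slope 0.96 ± 0.046 per doubling of Pdgfra, adjusted p = 5.41e-65), with nearly the same r in both clusters (0.66 and 0.68). Timp2 (r = 0.65; slope 0.55 ± 0.030, adjusted p = 1.68e-54) and Dcn (r = 0.65; slope 0.59 ± 0.032, adjusted p = 3.81e-54) followed, then Lama2 (0.61), the laminin α2 chain, and Mmp2 (0.57). The median slope was 0.42 for the members and -0.017 for all genes.

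Of 11 basement membrane genes, 4 were higher with Pdgfra, 0 were lower and 7 did not pass. Over all genes, 26.6% were higher and 32.2% lower. Sparc (adjusted p = 0.775 by edgeR, 95% interval of the slope -0.10 to 0.15), Hspg2 (0.437, -0.048 to 0.13) and Col5a3 (0.887, -0.19 to 0.16) were among the 11 members that did not pass. Timp3 was lower (slope -0.17 ± 0.044, adjusted p = 0.000437), and Lamb1 was higher (0.19 ± 0.032, adjusted p = 3.24e-08). Macrophage markers moved with Pdgfra too, with 14 of 14 higher. Of the 13 other progenitor and fibroblast markers, 10 were higher and 1, Pparg, was lower (r = -0.40). All 12 adipocyte markers were lower (median slope -0.32), and 8 of 12 endothelial markers were lower and 1 higher. The part of these markers in the members' slopes was not tested.

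Side by side, 29 of the 44 members were higher with all 3 reference genes, against 14.6% of all genes, and 8 were higher with Lep and Adgre1 and not called for Pdgfra, against 8.09% of all genes: Col4a2, Col5a3, Col15a1, Col18a1, Hspg2, Nid1, Nid2 and Sparc. Lamb1 and Thbs2 were lower with Lep and higher with Pdgfra, Timp3 was lower with all 3 (19.3% of all genes), and Lama4 and Thbs1 were called for none (8.27%). For Thbs2 with Lep, r was -0.21 with Y counts and 0.13 without. In libraries without Y counts the r of Timp3 was 0.12 with Lep, 0.034 with Adgre1 and -0.016 with Pdgfra, and given the other 2 reference genes it was 0.087 with Lep and 0.023 with Pdgfra. With the 3 reference genes in 1 model, 19 of the 29 members were still higher with all 3, and a slope changed sign for 7: Timp1, Col4a1, Col8a1, Col12a1 and Tnc on Pdgfra, Mmp14 on Lep and Eln on Adgre1. Of the 8 members, 4 were still higher with Lep and Adgre1 in that model, and the slope on Adgre1 changed sign for Col18a1, Nid1 and Nid2. These fits share the same libraries, and the reference genes were related among themselves: r was 0.47 for Lep and Adgre1, 0.48 for Adgre1 and Pdgfra and 0.0041 for Lep and Pdgfra. Without the 13 libraries that held other material, 38 members were higher and 3 lower with Lep, 38 and 3 with Adgre1, and 35 and 1 with Pdgfra, and r was 0.85 for Sparc with Lep, 0.77 for Timp1 with Adgre1 and -0.45 for Lamb1 with Lep. Given the other 2 reference genes, the partial r was 0.78 for Sparc with Lep, 0.58 for Timp1 with Adgre1 and 0.57 for Timp2 with Pdgfra, and 0.034 for Timp1 with Pdgfra.

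Differences between 2 members tested whether partners moved unequally. The log2 difference between Col1a1 and Col1a2, the chains of type I collagen, ran from -1.36 to 0.64 with a median of -0.20. It rose with Lep (r = 0.67, 95% interval 0.62 to 0.72) and with Adgre1 (r = 0.54, 0.48 to 0.60), and with Pdgfra the r was 0.053 (-0.038 to 0.14). Timp1 minus Timp3 rose with Adgre1 (r = 0.74), as did Mmp14 minus Timp2 (0.51, or 0.70 with Y counts and 0.23 without). Mmp14 varied more than Timp2 (SD 0.54 against 0.33), and by itself had an r of 0.67 with Adgre1, against 0.47 for Timp2. Timp1 varied far more than Timp3 (SD 1.38 against 0.36) and had an r of 0.74 with Adgre1 by itself. The difference of these inhibitors thus largely repeats the relation of Timp1. Col1a1 minus Col4a1, interstitial against basement membrane collagen, had an r of 0.28 with Lep, 0.57 with Adgre1 and 0.47 with Pdgfra. Each of these differences had an adjusted p of 1.5e-05 by a two-sided permutation test with 100000 resamples. That is the adjusted value, over 18 comparisons, of the smallest p the resamples can give (1e-05). The exception was Col1a1 minus Col1a2 with Pdgfra (adjusted p = 0.272 by the same test). Col5a3 minus Col5a1 with Adgre1 also did not pass the permutation test (r = -0.046, -0.14 to 0.045; adjusted p = 0.314).

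**Figure D5:**
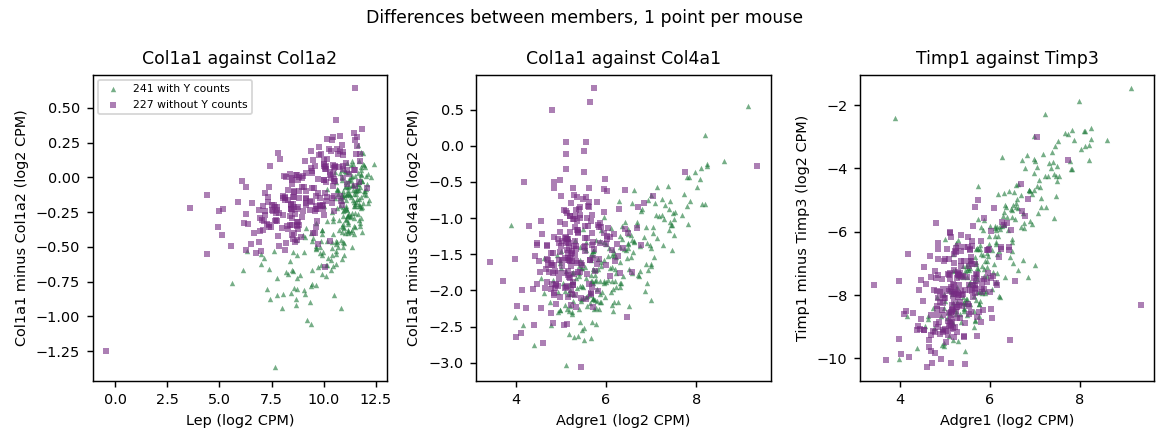
Differences in log2 CPM between 2 members (vertical axes) against the log2 CPM of Lep or Adgre1 (horizontal axes), 1 point per mouse, triangles with and squares without Y counts. Col1a1 minus Col1a2 rises with Lep in both clusters (r = 0.74 and 0.64), Col1a1 minus Col4a1 rises with Adgre1 (0.75 and 0.33), and so does Timp1 minus Timp3 (0.85 and 0.49).

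Slopes differed between the clusters for many members and many other genes. In a fit with a term for this difference, added after the data had been seen, the slope on Lep differed for 31 of 44 members (43.7% of all genes), for 25 of them being larger with Y counts. The difference was 0.29 for Col1a1 (r = 0.72 with Y counts and 0.50 without), 0.26 for Col3a1 and 0.12 for Sparc. The slope on Adgre1 differed for 19 members (50.8% of all genes) and that on Pdgfra for 16 (44.8%). A called difference came with an r of opposite sign in the clusters for 4 members with Lep (13.8% of all genes), 5 with Adgre1 (21.7%) and 5 with Pdgfra (23.9%), or 14 relations in all (19.8% over all genes). Spread differed as well, with an SD of log2 CPM of 1.28 with Y counts and 1.71 without for Lep, and 0.92 and 0.65 for Adgre1, so a cluster's r and its slope need not change alike. For Col1a1 and Adgre1, r was 0.85 and 0.48 and the difference in slope was not called. For Timp3 and Adgre1, r was -0.64 and 0.034, and the slopes differed by -0.31 ± 0.039 (adjusted p = 5.24e-13 by edgeR).

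Other genes of the pathway, from fixed lists, are given by counts at the same threshold, here and in the next paragraph. The shares to set beside all these lists are those over all genes. They were 33.5% higher and 41.3% lower with Lep, 31.4% and 44.1% with Adgre1, and 26.6% and 32.2% with Pdgfra. Of 22 collagen processing genes tested, 19 were higher and 1 lower with Lep, 19 and 1 with Adgre1, and 16 and 0 with Pdgfra. The closest were P3h1, a prolyl hydroxylase of collagen, for Lep (r = 0.72), Colgalt1, a collagen galactosyltransferase, for Adgre1 (0.78) and P3h3 for Pdgfra (0.49), and the lowest were P4ha1 for Lep (-0.23) and P4ha2 for Adgre1 (-0.11) and Pdgfra (-0.0091). Of 29 matrix receptors, 18 were higher and 7 lower with Lep, 20 and 7 with Adgre1, and 20 and 3 with Pdgfra. Their extremes were the integrin genes Itgb1 (r = 0.77) and Itga10 (-0.40) for Lep, the hyaluronan receptor Cd44 (0.84) and Itga3 (-0.31) for Adgre1, and the collagen-binding Antxr1 (0.71) and Dag1 (-0.28) for Pdgfra.

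Of 25 TGF-beta pathway genes, 15 were higher and 4 lower with Lep, 15 and 4 with Adgre1, and 16 and 3 with Pdgfra, with Fstl3 (r = 0.71), the ligand Tgfb1 (0.84) and Tgfbi (0.48) highest and Smad4 (-0.24), Smad4 (-0.21) and Smad2 (-0.27) lowest in that order. Of 29 other proteases and inhibitors, 19 were higher and 3 lower with Lep, 18 and 8 with Adgre1, and 20 and 4 with Pdgfra. The aggrecanase Adamts5 (r = 0.84) and Mmp9 (-0.33) were the extremes for Lep, the lysosomal protease Ctss (0.90) and Timp4 (-0.31) for Adgre1, and the plasminogen activator Plat (0.61) and Mmp15 (-0.41) for Pdgfra. Of 59 other matrix proteins, 30 were higher and 10 lower with Lep, 29 and 17 with Adgre1, and 34 and 3 with Pdgfra. Prelp (0.83) and Col7a1 (-0.35) were the extremes for Lep, Loxl3 (0.64) and Smoc1 (-0.48) for Adgre1, and Loxl3 (0.60) and Col13a1 (-0.24) for Pdgfra.

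Few members followed the order of the mice or libraries, which stand in for batches the labels do not name. With the mouse number, 0 members were higher and 5 lower, against 5.04% and 8.84% of all genes: Thbs2 fell by 0.13 on the log2 scale per 100 numbers (adjusted p = 5.73e-05), Timp3 by 0.047, Fmod by 0.058, Lama2 by 0.040 and Lamb1 by 0.029. With the library number, edgeR, DESeq2 and limma each called 0 members, against 0.229% of all genes higher and 0.174% lower by edgeR, and 10 members had an unadjusted p under 0.05. Within 5 blocks of mouse numbers, r lay between 0.65 and 0.82 for Timp1 with Adgre1 and between 0.64 and 0.76 for Mmp14 with Pdgfra.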

How the data were processed

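Per the labels, RNA was taken from adipose tissue, and per the study's methods reads of each pair were aligned as single ends to a transcriptome of the founder strains and quantified by EMASE within GBRS. The authors deposited expected counts per gene (66.8% whole within 1e-06), a second table of log2-scale values from the variance stabilizing transformation of DESeq2, and gene positions (GRCm38 in the submitters' processing notes). Tool versions were not given in the sources used here, and 0 sample columns were unused. Expected counts were rounded and tested with edgeR 4.0.16 (R 4.3.3), TMM scaling (factors 0.578 to 1.36), the cluster of Y chromosome counts as covariate, the log2 CPM (prior count 2) of the reference gene, and Benjamini-Hochberg adjustment over all genes past the filter. Slopes are log2 units per doubling. Correlations used Python 3.11.15 and numpy 2.4.6. Alternatives used DESeq2 1.42.0 and limma 3.58.1. Named outside genes are those with the highest and lowest r of each list. Tested on simulated counts for the relation to Lep (18380 genes, 50 changed per slope), the fit recovered 88% of genes with a slope of 0.05 and 100% with 0.1 or more. Those counts were drawn independently for each gene and without a cluster difference, unlike the members, so the recovery need not hold for them. Members and lists were chosen with earlier results of these data known.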

Additional observations from a re-analysis of the deposited data

Results flagged for a closer look

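For 7 members, 14 relations had slopes that differed between libraries with and without Y counts (edgeR, adjusted p under 0.05) and correlations of opposite sign in the 2 clusters. The 14 are 10.6% of the members' relations, against 19.8% of the relations of all genes. The clusters are not groups of the labels, the test was added after the data were seen, and each value below is the slope with Y counts minus the slope without, in log2 units per doubling of the reference gene. Thbs1 differed by -0.21 for Lep (r = -0.046 with Y counts and 0.25 without), -0.73 for Adgre1 (-0.19 and 0.27) and -1.31 for Pdgfra (-0.13 and 0.39). Thbs2 differed by -0.23 for Lep (r = -0.21 and 0.13) and -0.39 for Adgre1 (-0.0018 and 0.27). Lama4, a laminin chain of vessels and adipocytes, differed by -0.043 for Lep (r = -0.079 and 0.20), -0.15 for Adgre1 (-0.26 and 0.19) and -0.33 for Pdgfra (-0.17 and 0.38). Fmod differed by -0.48 for Adgre1 (r = -0.12 and 0.35) and -0.42 for Pdgfra (-0.047 and 0.25). Timp3 differed by -0.14 for Lep (r = -0.38 and 0.12) and -0.31 for Adgre1 (-0.64 and 0.034). Nid1 differed by -0.36 for Pdgfra (r = -0.040 and 0.27), and elastin (Eln) by -0.58 for Pdgfra (-0.093 and 0.32). In all 14 the negative r was found with Y counts. The sizes of the clusters equal the study's numbers of male and female mice for adipose tissue. No sample label gives a sex or a cause, and no cause was tested.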

How the results depend on the processing

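No paired analysis was possible because the labels hold a single group, so no mouse number occurs in a second one. Mice were not left out one at a time; the 2 farthest libraries and those that stand apart were left out together. The numbers of members higher with Lep, Adgre1 and Pdgfra stayed within 1.5 times under every alternative run. Members lower numbered 1 for Lep, 4 for Adgre1 and 3 for Pdgfra with the 3 reference genes in 1 model, 4 for Adgre1 and 5 for Pdgfra without the cluster in the model, and 1 for Adgre1 by limma on the deposited log2 values. Members higher with the mouse number were 3 without the cluster, and the median r of fibrillar with basement membrane genes was 0.31 freed of the reference genes. The causes were not tested.

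With the 3 genes in 1 model, slopes changed sign to -0.012 for Mmp14 on Lep, 0.014 for Timp3 on Lep, -0.012 for Col18a1 on Adgre1, -0.046 for Nid1 on Adgre1, -0.062 for Nid2 on Adgre1, -0.048 for Eln on Adgre1, -0.016 for Col4a1 on Pdgfra, -0.071 for Col8a1 on Pdgfra, -0.098 for Col12a1 on Pdgfra, -0.027 for Tnc on Pdgfra, -0.35 for Timp1 on Pdgfra and 0.015 for Timp3 on Pdgfra. Without the cluster they became -0.14 for Col12a1 on Pdgfra, -0.041 for Eln on Pdgfra and 0.0036 for Fmod on mouse number. Given the other 2 genes, r became -0.015 for Col4a1 with Pdgfra, -0.035 for Col18a1 with Adgre1, -0.087 for Nid1 with Adgre1, -0.051 for Nid2 with Adgre1, -0.036 for Col8a1 with Pdgfra, -0.051 for Col12a1 with Pdgfra, -0.075 for Eln with Adgre1, -0.062 for Tnc with Pdgfra, -0.073 for Thbs2 with Adgre1, -0.023 for Mmp14 with Lep, 0.087 for Timp3 with Lep, 0.023 for Timp3 with Pdgfra and -0.12 for Mmp14 minus Timp2 with Lep. In libraries with Y counts it was -0.040 for Nid1 with Pdgfra, -0.093 for Eln with Pdgfra, -0.046 for Thbs1 with Lep, -0.13 for Thbs1 with Pdgfra, -0.0018 for Thbs2 with Adgre1, -0.047 for Fmod with Pdgfra, -0.0079 for Col4a1 minus Col4a2 with Pdgfra and -0.027 for Col5a3 minus Col5a1 with Lep, and in those without 0.12 for Timp3 with Lep, 0.034 for Timp3 with Adgre1 and -0.10 for Mmp14 minus Timp2 with Lep. Not centred, it was -0.086 for Col18a1 with Pdgfra, -0.098 for Col8a1 with Pdgfra, -0.071 for Col12a1 with Pdgfra, -0.0056 for Eln with Pdgfra, -0.024 for Tnc with Pdgfra, -0.14 for Thbs2 with Adgre1, -0.076 for Fmod with Pdgfra and -0.10 for Mmp14 minus Timp2 with Lep. In mouse number blocks it was -0.052 for Col4a1 with Pdgfra, -0.046 for Col18a1 with Pdgfra, -0.051 for Eln with Pdgfra, -0.13 for Thbs1 with Lep, -0.041 for Thbs1 with Pdgfra and -0.058 for Thbs2 with Adgre1 in block 1, 0.078 for Lamb1 with Adgre1 and 0.058 for Timp3 with Lep in block 3 and -0.0076 for Eln with Pdgfra in block 5. In library number blocks it was 0.029 for Lamb1 with Adgre1 in block 2, 0.099 for Lamb1 with Adgre1 in block 3, -0.061 for Col4a1 with Pdgfra, -0.17 for Nid1 with Pdgfra, -0.058 for Eln with Pdgfra, -0.057 for Thbs1 with Lep, -0.090 for Thbs1 with Pdgfra and -0.017 for Thbs2 with Adgre1 in block 4 and -0.0100 for Col4a1 with Pdgfra, -0.021 for Col18a1 with Pdgfra, -0.018 for Nid1 with Pdgfra, -0.062 for Mmp14 with Lep, -0.076 for Timp2 with Lep and -0.021 for Mmp14 minus Timp2 with Lep in block 5. Of the other changes, 25 slopes fell below the threshold and 49 passed it with the same direction, while 2419 kept direction and side, and 6.88%, 1.51% and 89.7% of the values of r did the same, in that order. No member was at 0 in any library, 3 slopes fell below the threshold without the libraries of lowest depth, and counting error covers only part of the spread; the relations are across mice of 1 diet, cell proportions were not measured, and overlapping genes may share reads.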

Other observations

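Outside all lists, the genes closest to the mean z-score of the fibrillar collagens among 9259 genes that averaged 10 CPM or more were C1qtnf6 (r = 0.88), Calu (0.86), Sh3pxd2b (0.85), Creb3l1 (0.84) and Coro1c (0.83). Calu encodes a calcium-binding protein of the secretory pathway, and Creb3l1 a transcription factor of the endoplasmic reticulum membrane. The lowest were Aldh6a1 (-0.78), an enzyme of valine breakdown, and Pdk2 (-0.77), a pyruvate dehydrogenase kinase. For the basement membrane genes the closest were Vim (0.81), which encodes the intermediate filament vimentin, Anxa1 (0.77), Fndc3b (0.77), Fam114a1 (0.77) and Dse (0.77), and the lowest was Taz (-0.75). These are descriptions over the same libraries and carry no test.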
